A study of Bos taurus with 8 samples.

Results

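Serine is made inside cells by a short pathway in the cytosol. PHGDH, PSAT1 and PSPH catalyse its successive steps from a glycolytic intermediate, and the hydroxymethyltransferases SHMT1 (cytosol) and SHMT2 (mitochondria) turn serine into glycine and pass a carbon unit to folate. MTHFD2 oxidizes that unit in mitochondria for the synthesis of nucleotides. ATF4 is a transcription factor whose translation increases when the initiation factor eIF2 is phosphorylated. In human and mouse cells it activates PHGDH, PSAT1, PSPH, SHMT2 and MTHFD2. It also activates asparagine synthetase (ASNS) and the amino acid exchanger formed by SLC7A5 and SLC3A2. These 10 genes, of 18010 genes with a probe set of a single symbol, were taken by name with earlier results of these data known. Each had 1 such probe set on the array.

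Granulosa cells, mural and cumulus, came from 4 High A4 and 4 Control cows, from the estrogen-active dominant follicle, with 1 array per cow. Mean follicular fluid androstenedione (A4) in the series' design was 356 ng/mL in High A4 and 1.9 ng/mL in Control, the group that the sample labels call low androgen content. Cows of both groups were 75% Red Angus and 25% MARC III, received GnRH, a progesterone device for 7 days and prostaglandin, and were ovariectomized about 36 h after removal of the device. The labels state a granulosa cell purity of 94% or more, with ages not given in the sources used here. Groups were set by A4 in the follicle and not by a treatment, and the cows came from the extremes of their groups.

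The intensities are normalized, linear and in arbitrary units, and levels of different genes cannot be compared. Between 9065 and 9403 of 26773 probe sets were above an intensity of 100, the study's noise threshold, on the High A4 arrays and between 9551 and 9687 on the Control arrays. High A4 replicate 1 stood apart, with correlations of log2 intensity from 0.820 to 0.901 with the other arrays, while Control replicates 1 and 2 were the most alike (correlation 0.984, median absolute log2 difference 0.12). FSHR, FOXL2 and CYP19A1, which mark granulosa cells, had mean intensities of 1539, 795 and 7106 in High A4 and 1627, 780 and 6741 in Control. CYP17A1, the androgen-making enzyme of theca cells, averaged 773 ± 666 in High A4 cows and 112 ± 50.3 in Control cows (SD, n = 4 per group). Of all probe sets, 10120 exceeded 100 in the mean of either group. Over these the median log2 fold change was -0.16, and fold changes below are High A4 minus Control from limma over those probe sets unless stated.

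Log2 fold changes were negative for 8 of the 10 genes, from -1.24 for PHGDH to -0.36 for SLC3A2, while SHMT2 was at 0.19 and SHMT1 at 0.05. Of all 26773 probe sets 50.7% were negative, and of the 10120 above the noise threshold 74.3%. At an adjusted p under 0.05, 0 of the 8 genes above the noise threshold passed, where 0.623% of all probe sets tested fell and 1.56% rose. ASNS was nearest, with an adjusted p of 0.0504. At an unadjusted p under 0.05, 6 of those 8 were lower and 0 higher, against 17.1% lower and 4.83% higher of all probe sets tested. PHGDH, PSAT1, ASNS and SLC7A5 entered the test through their Control mean alone, so these shares are no support for a change. Without the noise filter, all 10 genes were tested among 26773 probe sets, and PHGDH, PSPH and ASNS fell (adjusted p 0.0327, 0.0286 and 0.0211), where 1.64% of all probe sets fell and 8.47% rose. The unadjusted p of PHGDH and ASNS hardly differed between the fits (limma, 0.00286 and 0.00111 with the filter, 0.00263 and 0.00137 without it). Their passing therefore came with the adjustment over a different set of probe sets. That count of 3 was 0 without High A4 replicate 1, Control replicate 1 or Control replicate 2, and 1 without High A4 replicate 3 or Control replicate 3. It was 2 without High A4 replicate 2, 4 without High A4 replicate 4 and 5 without Control replicate 4. No share over all probe sets was counted in those fits, so nothing about these genes is read from the counts. In the fit without the filter 7 of the 10 were lower at an unadjusted p under 0.05, against 9.24% of all probe sets, and 0 were higher, against 15.7%. Those shares include many dim probe sets, whereas 8 of the 10 genes were above the noise threshold, where the shares were 17.1% and 4.83%. The genes were chosen with earlier results of these data known, so these counts are no support for a change either. Without High A4 replicate 4, PHGDH, MTHFD2 and ASNS passed with the noise filter too (adjusted p 0.027, 0.0445 and 0.0381). Of all probe sets tested, 575 fell in that fit, against 63 with all cows, so the change was not particular to these genes. Without Control replicate 4, PHGDH and SLC7A5 passed (adjusted p 0.0229 and 0.0458), and without Control replicate 3, ASNS alone (adjusted p 0.0443). Of all probe sets tested, 51 and 37 fell in those fits. None passed when any other cow was left out.

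**Figure D1:**
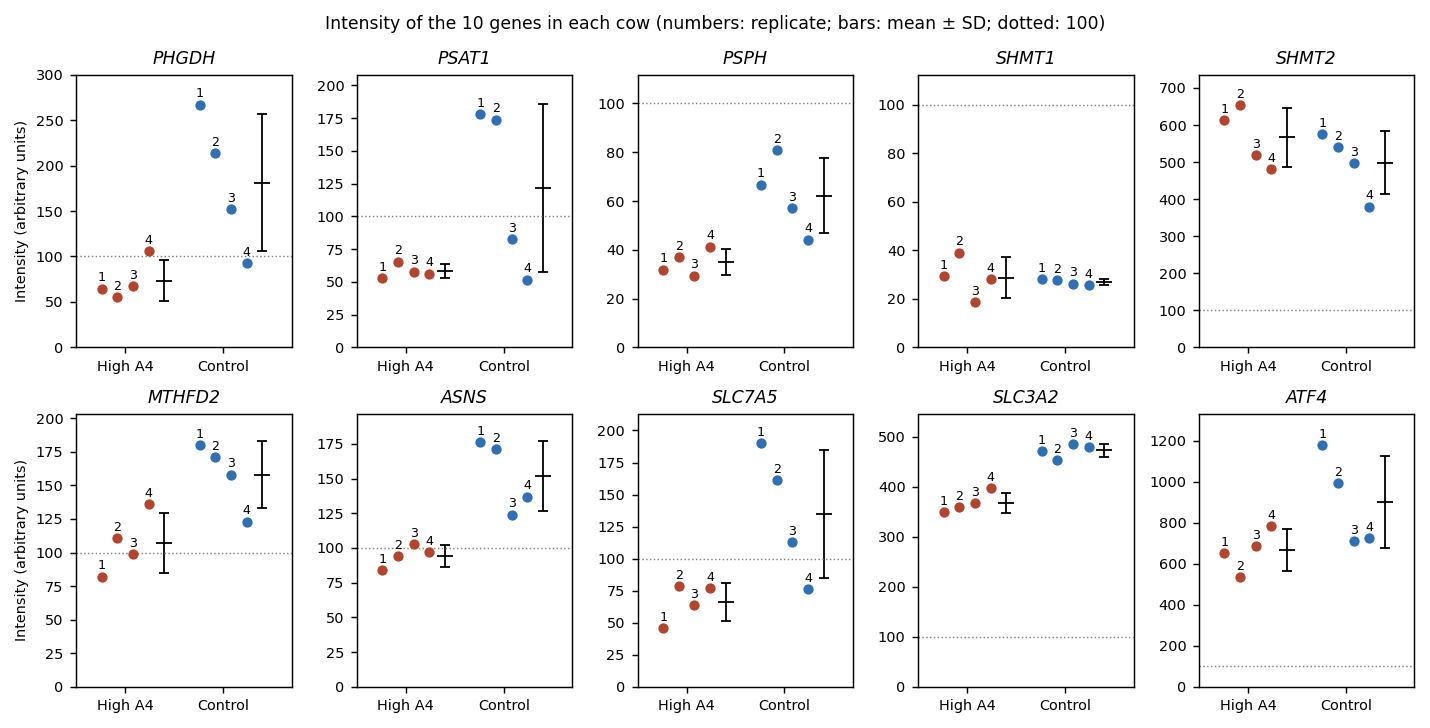
Linear intensity (arbitrary units, y axes from 0) of the 10 genes in each of the 4 High A4 and 4 Control cows, with replicate numbers beside the points, the mean and SD as black bars and a dotted line at 100. ASNS, SLC3A2 and PSPH do not overlap between the groups, and Control replicates 1 and 2 are the highest Control cows for 9 of the 10 genes.

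PHGDH, which commits glycolytic carbon to serine, had intensities of 64.8, 55.2, 67.3 and 106 in High A4 replicates 1 to 4, against 267, 214, 152 and 93 in Control replicates 1 to 4. The groups overlapped only through High A4 replicate 4 and Control replicate 4. The log2 fold change was -1.24 (95% interval -1.95 to -0.54, adjusted p = 0.0802). The Control cows differed by 2.87 times from lowest to highest and the High A4 cows by 1.93 times. Relative to the median of all probe sets tested the log2 fold change was -1.08.

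PSAT1, the aminotransferase of the next step, had 53.2, 65.6, 57.9 and 56.3 in High A4 and 178, 174, 82.6 and 51.8 in Control. The High A4 cows lay close together (58.2 ± 5.25, SD, n = 4 cows), whereas the Control cows ranged over 3.44 times, and Control replicate 4 was below every High A4 cow. The log2 fold change was -0.89 (95% interval -1.68 to -0.10, adjusted p = 0.194). Without Control replicate 4 it was -1.24, with an adjusted p of 0.0642, the lowest with 1 cow left out.

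PSPH, the phosphatase that releases serine, was dim in all cows, at 31.9, 37, 29.4 and 41.3 in High A4 and 66.7, 80.7, 57 and 44.2 in Control. All High A4 cows were below all Control cows, although High A4 replicate 4 and Control replicate 4 were near each other. Its means were under the noise threshold in both groups. Without the filter its log2 fold change was -0.81 (95% interval -1.25 to -0.37, adjusted p = 0.0286). With an offset of 50 added to the intensities it was -0.39 (adjusted p = 0.0617), and with each array centred on its median -0.65 (adjusted p = 0.0531). The methods' analysis of variance, run without moderation, gave an adjusted p of 0.0933. With raised error variance, a rule that the paper does not state, it was 0.237. Leaving out any cow other than High A4 replicates 2 and 4 and Control replicate 4 gave an adjusted p from 0.0575 to 0.0863 in limma.

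SHMT2, the mitochondrial hydroxymethyltransferase, had 613, 654, 519 and 482 in High A4 and 576, 540, 497 and 380 in Control. The groups overlapped, and the log2 fold change of 0.19 had a 95% interval from -0.18 to 0.56 (adjusted p = 0.5). Its sign was the same under each alternative, with values from 0.04 to 0.35. SHMT1, the cytosolic form, was between 18.8 and 39.1 in High A4 and between 25.8 and 28.3 in Control, under the noise threshold on every array. Its log2 fold change without the filter was 0.05 (95% interval -0.40 to 0.50, adjusted p = 0.907), and its sign turned with quantile normalization and cyclic loess.

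MTHFD2, the mitochondrial folate dehydrogenase that follows SHMT2, had 82, 111, 99 and 136 in High A4 and 180, 171, 158 and 123 in Control. High A4 replicate 4 was above Control replicate 4, and the other High A4 cows were below every Control cow. The log2 fold change was -0.57 (95% interval -0.99 to -0.16, adjusted p = 0.134).

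Asparagine synthetase, ASNS, had 84, 94, 103 and 96.8 in High A4 and 176, 171, 124 and 137 in Control. The groups did not overlap, and High A4 cows varied by 1.23 times. The log2 fold change was -0.68 (standard error 0.15, 95% interval -1.01 to -0.34, adjusted p = 0.0504). After centring, quantile normalization or cyclic loess it was between -0.56 and -0.52, with adjusted p from 0.119 to 0.128.

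SLC7A5, the light chain that carries large neutral amino acids, had 45.9, 78.3, 64 and 77 in High A4 and 190, 161, 113 and 76.5 in Control. Control replicate 4 lay at the level of High A4 replicates 2 and 4, and the other Control cows were above every High A4 cow. Its log2 fold change was -0.97 (95% interval -1.61 to -0.34, adjusted p = 0.108). SLC3A2, the heavy chain that brings SLC7A5 to the cell surface, had 349, 359, 367 and 397 in High A4 and 472, 454, 486 and 479 in Control. Both groups were narrow and did not overlap, with SDs of 20.7 and 13.4. The log2 fold change was small, at -0.36 (95% interval -0.61 to -0.11, adjusted p = 0.125), and was -0.20 relative to the median of all probe sets tested. Of all 10 genes, 3 (ASNS, SLC3A2 and PSPH) were lower in High A4 with no overlap, against 5.71% of all probe sets, and 0 were higher with no overlap, against 11.2%. Of the 8 above the noise threshold, ASNS and SLC3A2 were lower with no overlap and 0 were higher, where 10.4% and 2.93% of the probe sets tested were.

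ATF4 itself had 653, 536, 685 and 783 in High A4 and 1178, 991, 711 and 725 in Control. High A4 replicate 4 was above Control replicates 3 and 4, so the groups overlapped. Its log2 fold change was -0.42 (95% interval -0.85 to 0.01, adjusted p = 0.239). The array measures ATF4 transcript and not its translation.

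**Figure D2:**
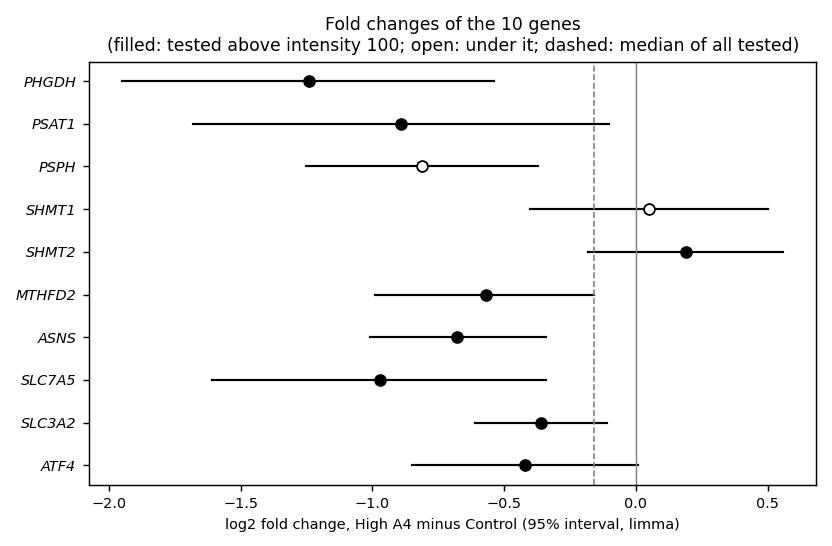
Log2 fold change (x axis, High A4 minus Control) of the 10 genes with 95% intervals from limma. Filled points were tested above the noise threshold, open points (PSPH, SHMT1) come from the fit without it, and the dashed line is the median of -0.16 over all probe sets tested. The intervals of SHMT1, SHMT2 and ATF4 include 0.

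The spread between Control cows had a shared order. Control replicates 1 and 2 were the highest Control cows for 9 of the 10 genes, SLC3A2 being the exception, against 17.1% of all probe sets tested. Control replicate 4 was the lowest Control cow for 7. Over the 8 genes other than SHMT1 and SHMT2, the mean deviation from the Control mean on the log2 scale was 0.37, 0.28, -0.16 and -0.48 in Control replicates 1 to 4. In High A4 replicates 1 to 4 it was -0.93, -0.75, -0.77 and -0.52. Control replicate 4 therefore lay near High A4 replicate 4 on these genes, while its median deviation over all probe sets tested was 0.02. High A4 replicates 1 to 4 were below every Control cow for 7, 6, 8 and 3 of the 10 genes. Their median deviations over all probe sets tested were -0.23, -0.16, -0.17 and -0.05. No share over all probe sets was counted for these numbers or for the lowest Control cow, so nothing is read from them. The order of the Control cows was noticed in the data and is a description. The sources used here give no A4 level per cow, and whether the order follows it could not be asked. With Control replicates 1 and 2 averaged as 1 sample, an alternative chosen after seeing the data, 0 of the 10 genes passed without the noise filter.

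**Figure D3:**
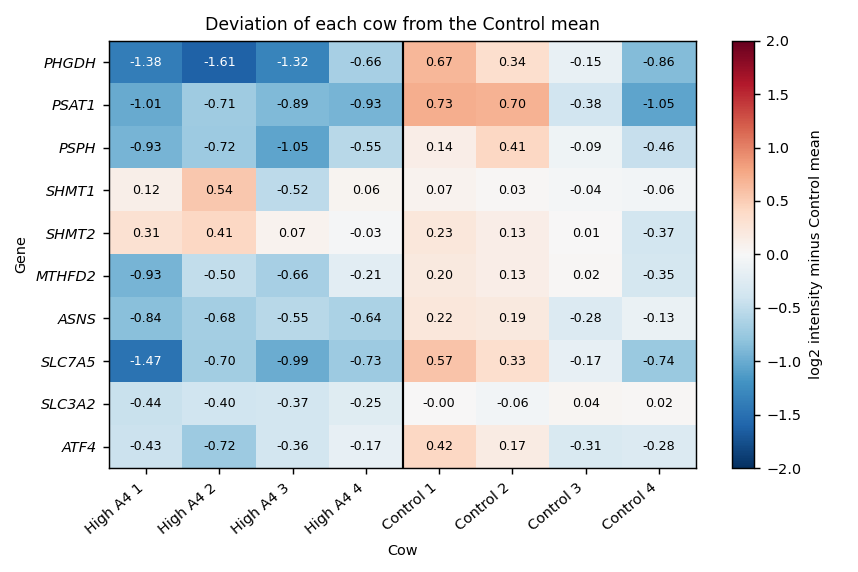
Log2 intensity of the 10 genes (rows) in each cow (columns, High A4 left of the line and Control right of it) minus the mean of the Control cows. Blue is below that mean and red above it. SHMT1 and SHMT2 lack the blue block of the High A4 cows, and most genes are red in Control replicates 1 and 2 and blue in Control replicate 4.

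Neighbouring steps were compared within each cow, which removes any shift that is common to an array. The 5 pairs were chosen after the values were seen and follow the pathway and the transporter. Neither the p nor the adjustment over 5 pairs covers that choice, so both are descriptions. The log2 ratio of SHMT2 to MTHFD2 was 2.90, 2.56, 2.39 and 1.83 in High A4 and 1.68, 1.66, 1.65 and 1.63 in Control, so the Control cows were nearly equal and every High A4 cow was above them. The difference was 0.77 (exact permutation test, two-sided, with 70 ways to split the cows, p = 0.0286, adjusted over 5 pairs 0.0714), and 0.0286 is the smallest p these splits can give. Over the alternatives the difference was between 0.58 and 0.96. The ratio of PSPH to SHMT2 was -4.26, -4.14, -4.14 and -3.54 in High A4 and -3.11, -2.74, -3.13 and -3.10 in Control, without overlap (exact permutation p = 0.0286, adjusted 0.0714), and PSPH was under the noise threshold. With the offset of 50 that difference moved to -0.57. Both ratios without overlap contain SHMT2, so they are not separate results. The remaining ratios overlapped between groups. They differed by -0.36 for PHGDH to PSAT1 (exact permutation p = 0.257), -0.08 for PSAT1 to PSPH (exact permutation p = 0.8) and -0.61 for SLC7A5 to SLC3A2 (exact permutation p = 0.171). With 1 cow left out, PHGDH to PSAT1 was -0.57 when High A4 replicate 4 was omitted and -0.18 when High A4 replicate 2 was. PSAT1 to PSPH turned sign, between -0.27 without Control replicate 4 and 0.12 without Control replicate 1.

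**Figure D4:**
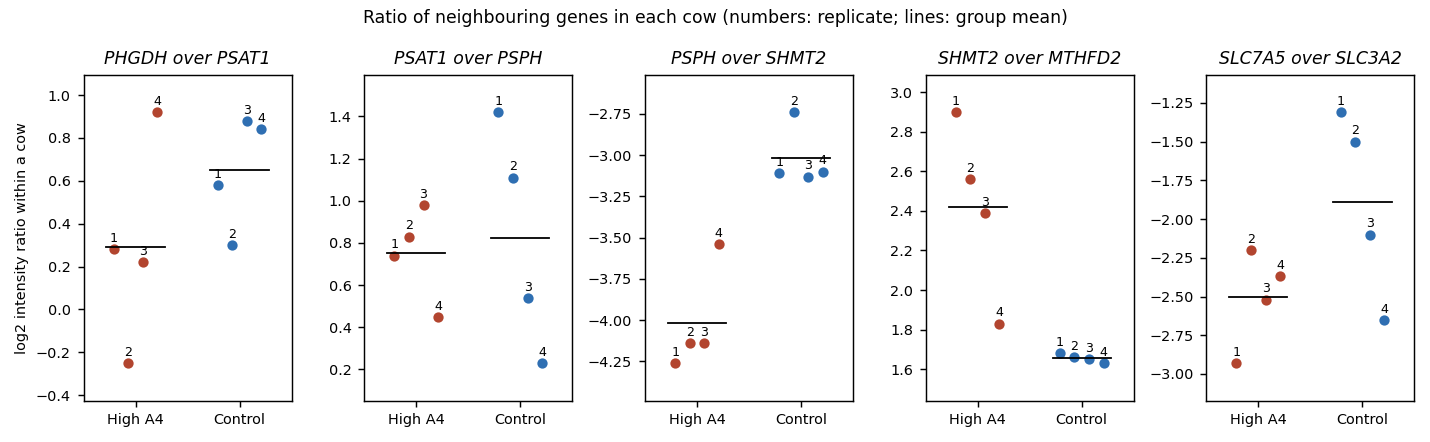
Log2 ratio of intensities within a cow (y axes, which do not start at 0) for 5 pairs of neighbouring genes, with High A4 left and Control right, replicate numbers beside the points and group means as lines. For SHMT2 over MTHFD2 the Control cows sit between 1.63 and 1.68 and the High A4 cows between 1.83 and 2.90.

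Around the 10 genes, 7 lists of the same metabolism and stress response held 124 measured genes, counting each once, of which 91 were above the noise threshold. None of the 91 passed in limma at an adjusted p under 0.05, with 21 lower and 1 higher at an unadjusted p under 0.05, where 17.1% and 4.83% of all probe sets tested were. The lists differed in their medians, which are given as descriptions beside the median of -0.16 over all probe sets tested and -0.63 over the 8 tested genes above.

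The other folate enzymes had a median log2 fold change of -0.28 over the 11 of 17 measured genes that were above the noise threshold, and all 11 were negative, as were 74.3% of all probe sets tested. MTHFD1L, which releases formate from mitochondria, averaged 828 ± 236 in High A4 cows and 1477 ± 207 in Control cows (SD, n = 4 per group), without overlap. Its log2 fold change was -0.87 (adjusted p = 0.0726), and -0.90 (adjusted p = 0.0637) on its other probe set. MTHFD1, the cytosolic counterpart, was at -0.52 (adjusted p = 0.174), and TYMS, which makes thymidylate, at -0.49 (adjusted p = 0.161). GGH, which trims folate chains, was at -0.52 (adjusted p = 0.161). MTHFD2L, an isozyme of MTHFD2, was under the threshold and averaged 65.4 ± 9.94 in High A4 cows and 99.7 ± 8.44 in Control cows (SD, n = 4 per group) without overlap, with a log2 fold change of -0.62 and an adjusted p of 0.0282 without the filter. With 1 cow left out that p was between 0.0157 and 0.091, and it stayed under 0.05 only without High A4 replicate 4 or Control replicate 1. MTHFD1L also passed without the filter (adjusted p = 0.0294), and ALDH1L2, the mitochondrial formyl-folate dehydrogenase, did not (-0.52, adjusted p = 0.214).

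Genes that use serine, glycine and methyl groups had a median of -0.26 over 10 tested genes. AHCY, which clears the by-product of methylation, was at -0.35 (adjusted p = 0.168), SPTLC2, which joins serine to a fatty acid for sphingolipids, at -0.33 (adjusted p = 0.221), and GAMT of creatine synthesis at -0.26 (adjusted p = 0.247). GLDC, which breaks down glycine in mitochondria, was at -0.22 (adjusted p = 0.472).

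Other amino acid transporters and enzymes linked to ATF4 had a median of -0.11 over 7 tested genes. Ornithine aminotransferase, OAT, averaged 3626 ± 639 in High A4 cows and 2810 ± 230 in Control cows (SD, n = 4 per group), with a log2 fold change of 0.35 and an adjusted p of 0.226. SLC38A1 (glutamine) and SLC7A1 (arginine and lysine) were at -0.32 and -0.46, with adjusted p of 0.239 and 0.299. The cystine carrier SLC7A11 was under the threshold at 0.37, and its sign turned without Control replicate 3.

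The stress branch of ATF4 had a median of -0.13 over 10 tested genes, with signs in both directions. DDIT3 (CHOP), a transcription factor of prolonged stress, averaged 169 ± 51.8 in High A4 cows and 158 ± 13.1 in Control cows (SD, n = 4 per group), with a log2 fold change of 0.05 (adjusted p = 0.896). CHAC1, which degrades glutathione, was at 0.57 (adjusted p = 0.275) and DDIT4, an inhibitor of mTORC1 signalling, at 0.36 (adjusted p = 0.368). CEBPG, a partner of ATF4, was at -0.59 (adjusted p = 0.214), XPOT, which exports tRNA, at -0.32 (adjusted p = 0.259) and VLDLR at -0.45 (adjusted p = 0.26). TRIB3, SESN2 and ATF3 lay under the noise threshold, with means of 21.7, 39.1 and 26.9 in High A4 and 25.5, 42.1 and 24.1 in Control. Whether this list differs from the 10 genes was not tested.

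Of the cytosolic tRNA synthetases, which charge tRNA with amino acids, all 17 measured genes were tested and had negative log2 fold changes, with a median of -0.39. At an unadjusted p under 0.05, 9 of the 17 were lower. Of the probe sets tested, 17.1% were lower at that p and 74.3% had a negative fold change. YARS1 was at -0.50 (adjusted p = 0.0984), CARS1 at -0.66 (adjusted p = 0.124) and GARS1 at -0.64 (adjusted p = 0.124). YARS1 and CARS1 did not overlap between groups, with 79.9 ± 5.57 and 105 ± 8.92 in High A4 against 114 ± 16.4 and 170 ± 51.9 in Control (SD, n = 4 per group).

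The list around eIF2, upstream of ATF4, had a median of -0.33 over 17 tested genes. It held the eIF2 kinases, eIF2, its exchange factor eIF2B and the related genes PPP1R15B, GCN1, IMPACT, NCK1 and DNAJC3. EIF2AK1, the kinase that responds to heme shortage, averaged 194 ± 24.2 in High A4 cows and 281 ± 22.4 in Control cows without overlap (SD, n = 4 per group). Its log2 fold change was -0.54 (adjusted p = 0.0756, and 0.0376 without the noise filter). EIF2AK2, which responds to double-stranded RNA, was at -0.72 (adjusted p = 0.12) and EIF2B1 at -0.35 (adjusted p = 0.179). EIF2AK4 (GCN2), the sensor of amino acid shortage, and EIF2AK3 (PERK), the sensor of the endoplasmic reticulum, were at -0.25 (adjusted p = 0.267) and 0.09 (adjusted p = 0.728).

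The other branches of the unfolded protein response had a median of -0.02 over 19 tested genes, with 0 at an unadjusted p under 0.05. HSPA5 (BiP), its main chaperone, averaged 2506 ± 299 in High A4 cows and 2599 ± 273 in Control cows (SD, n = 4 per group), with a log2 fold change of -0.05 (adjusted p = 0.833) whose sign turned after centring and with cyclic loess. DNAJB9 was at -0.50 (adjusted p = 0.242), SYVN1 at 0.27 (adjusted p = 0.308) and ATF6 at -0.22 (adjusted p = 0.37).

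**Figure D5:**
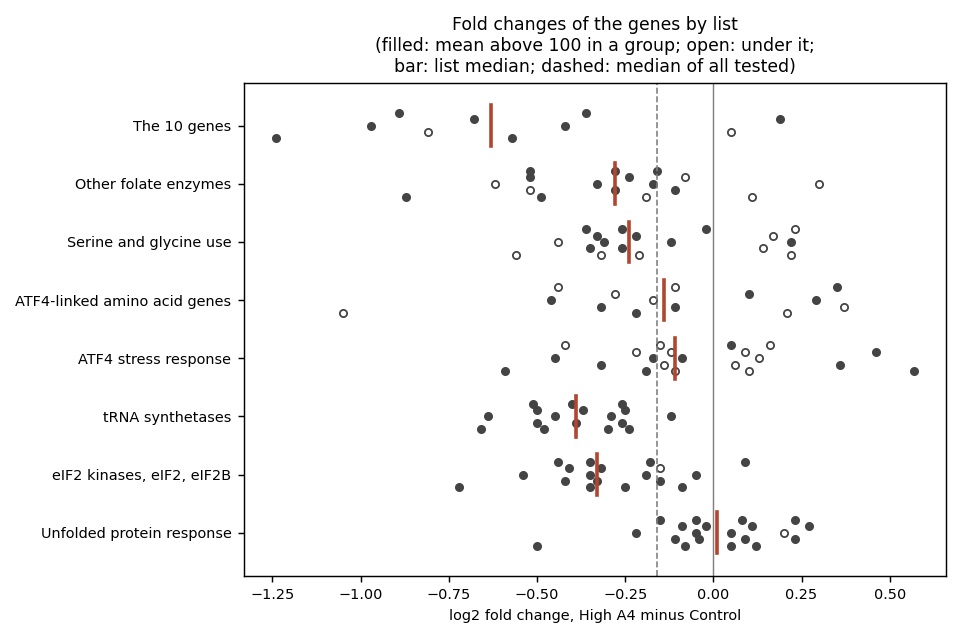
Log2 fold change (x axis, High A4 minus Control) of every measured gene of the 10 genes and of the 7 lists around them (rows, spread vertically only for legibility). Filled points have a group mean above 100, open points do not, red bars are medians over all measured genes of a row and the dashed line is -0.16. The 10 genes and the tRNA synthetases lie mostly left of the dashed line, with SHMT1 and SHMT2 right of 0, and the unfolded protein response lies around 0.

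Of the markers of other cells, 2 of the 4 theca and 2 of the 5 stromal genes tested rose, where 1.56% of all probe sets tested did. Of the 2 smooth muscle, 1 endothelial, 1 leukocyte and 6 luteal genes tested, 0 passed. Without the filter 2 of 6 theca, 5 of 16 stromal, 1 of 8 smooth muscle (RGS5) and 1 of 11 endothelial (EMCN) genes rose. Of the 12 leukocyte and 6 luteal genes 0 rose, and 0 genes of these lists fell. Among all probe sets 8.47% rose and 1.64% fell in that fit. Of the 8 smooth muscle genes 2 had negative log2 fold changes in it, MYH11 at -0.31 (adjusted p = 0.149) and MCAM at -0.50 (adjusted p = 0.164). Of the 11 endothelial genes 4 were negative in it, as were 50.7% of all probe sets. Over 16 stromal markers the summed intensity was 2227 to 4052 in High A4 and 991 to 3017 in Control, with 9 of the 16 under 100 on every array. LUM had the largest values in these sums, at 1131, 1666, 2107 and 933 in High A4 and 1905, 1633, 523 and 247 in Control. Its groups overlapped (log2 fold change 0.80, adjusted p = 0.424). Of the 16, 3 had negative log2 fold changes without the filter, TCF21 at -0.29, POSTN at -0.18 and THY1 at -0.05. DCN (decorin) averaged 387 ± 159 in High A4 cows and 146 ± 37.2 in Control cows (SD, n = 4 per group). Its log2 fold change was 1.35 with an adjusted p of 0.0472, which was 0.065 to 0.129 when any cow other than High A4 replicate 4 was left out. OGN (osteoglycin), named after its values were seen, averaged 107 ± 17.4 in High A4 cows and 37.5 ± 8.22 in Control cows (SD, n = 4 per group), at a log2 fold change of 1.53 (adjusted p = 0.000978). With 1 cow left out its adjusted p was at most 0.00537, and without High A4 replicate 3 it was under the noise threshold and not tested. Over 6 measured theca markers the sum was 1752 to 4491 in High A4 and 745 to 1543 in Control. Of these 6, 2 had negative log2 fold changes, PTCH1 at -0.14 (adjusted p = 0.555) and HHIP, without the filter, at -0.43 (adjusted p = 0.232). CYP17A1 rose by 2.59 on the log2 scale (adjusted p = 0.0223), with an adjusted p of 0.072, 0.0632 and 0.068 without Control replicates 1, 2 and 4. ALDH1A1, which oxidizes retinal and was also named after its values were seen, averaged 189 ± 12 in High A4 cows and 53.2 ± 13.3 in Control cows (SD, n = 4 per group). The log2 fold change was 1.87 (adjusted p = 0.000384), and the adjusted p was at most 0.00209 with any cow left out. ALDH1A1 and OGN entered the test through their High A4 mean alone. The shares of tested theca and stromal genes that rose are therefore no support for a change. Endothelial markers summed to 450 to 512 in High A4 and 365 to 421 in Control, with 10 of 11 under 100 on every array, and 8 smooth muscle markers to 585 to 902 in High A4 and 713 to 810 in Control. Over 12 leukocyte markers the sums were 492 to 1832 in High A4 and 426 to 1836 in Control, and over 6 luteal markers 14303 to 15063 in High A4 and 9059 to 13699 in Control. The 15 granulosa markers summed to 39914 to 43294 in High A4 and 37698 to 41255 in Control, with 0 passing and 0 at an unadjusted p under 0.05. The part of these cells in the values of the 10 genes was not tested, and in bulk RNA fewer cells of a type and less RNA per cell cannot be told apart.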

How the data were processed

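The arrays were Affymetrix Bovine Gene 1.0 ST, 1 for each of 8 cows, with granulosa cell RNA. The authors deposited linear normalized intensity values. Robust Multi-Array Averaging is named in the paper, whereas GCRMA and Affymetrix Expression Console stand in the submitters' processing notes, and which of these made the values is not settled. The sources used here do not give versions, scan dates or the array's genome build. No sequences or coordinates are shown.

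Probe sets were named from the platform table (18457 with 1 symbol, 688 with several, 7628 with none), and the IDs of all 10 genes matched the gene table of ARS-UCD2.0. Each gene was represented by its single-symbol probe set with the highest mean of the 8 arrays. The test on log2 intensities was that of limma 3.58.1 (R 4.3.3), over the 10120 probe sets whose mean exceeded 100 in either group, with Benjamini-Hochberg adjustment at 0.05, and adjusted p are from limma. Within-cow ratios were compared by exact permutation. Named genes were the 10 members, in each list up to 4 that passed or otherwise the 3 with the smallest p, and genes fixed by name. Fixed genes with no single-symbol probe set, such as ATF5 and CEBPB, are not reported here. The members and lists were chosen with earlier results of these data known. Alternatives covered the filter, scaling, offset, variance model, the methods' analysis of variance, each cow left out, and a block for the replicate number. Raised error variance took the larger of a probe set's own variance and the mean over the 500 nearest in intensity. The paper does not state that rule. Its own criterion joined p under 0.05 with a fold change cut-off, which was not applied here. The labels give no culture or litter, and 1 array stands for 1 cow. The fits were tested on simulated data with independent noise for each probe set and array. Those data lacked the likeness between arrays seen here, so nothing about these calls is drawn from them. The number of arrays limits the precision.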

Additional observations from a re-analysis of the deposited data

Results flagged for a closer look

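Among 100 groups of 4 cows looked at for the 10 genes and the other named genes, 3 held a cow far from the rest, where chance gives about 1 in 20, and 0 of them was a group of the 10 genes. CYP17A1 was at 1772 in High A4 replicate 1, far above the other High A4 cows. OAT was at 3153 in Control replicate 3, above the other Control cows. EIF2B1 was at 138 in Control replicate 2, below the other Control cows.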

How the results depend on the processing

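The signs of PHGDH, PSAT1, PSPH, MTHFD2, ASNS, SLC7A5, SLC3A2, ATF4 and SHMT2 were the same under every alternative that gave a value. Of the 8 genes above the noise threshold, the number that fell was 0, but 6 with array weights, 3 of all 10 without the noise filter and 1 (SLC3A2) in the methods' analysis of variance without moderation, and 0 to 3 with 1 cow left out. Without the filter it was 3, but 1 with each array centred on its median, 1 with quantile normalization, 1 with cyclic loess, 5 with array weights, 0 in the analysis of variance with raised error variance, 0 with Control replicates 1 and 2 averaged, and 0 to 5 with 1 cow left out. Shares over all probe sets were not counted for these alternatives without the filter.
Of all probe sets 63 fell and 158 rose. The 63 became 19, 19 and 18 after centring, quantile normalization and cyclic loess (where the median of all tested moved to -0.00, -0.03 and -0.01), 939 with array weights, 24 and 0 in the analysis of variance without moderation and with raised error variance, 440 without the filter, 17 with a mean over all 8 arrays above 100, 12 with Control replicates 1 and 2 averaged and 9 to 575 with 1 cow left out. The 158 became 328 with array weights, 96 and 22 in the same analyses of variance, 2267 without the filter, 68 with the mean over all 8 arrays and 114 to 302 with 1 cow left out. After centring, 50.6% of probe sets were lower, against 74.3%. Of the genes of the 7 lists, 13 fell and 1 rose with array weights, 3 fell without the filter and 0 to 6 fell with 1 cow left out. The 6, the 575 and the 302 came without High A4 replicate 4, and the 9 without Control replicate 2.
Deviations of same-numbered cows had correlations of 0.189, -0.224, -0.113 and 0.203, and those of other pairs lay between -0.19 and 0.248. No pairing by number was seen, and 4 cows per group cannot exclude one. With the replicate block 25 probe sets fell, and of the 10 genes 0 with and 0 without the filter.
Signs turned for SHMT1 (-0.19 with quantile normalization, -0.17 with cyclic loess and -0.11 to 0.24 with 1 cow left out), DDIT3 (-0.09 with array weights and -0.11 to 0.23 with 1 cow left out), SESN2 (0.04 after centring), ATF3 (-0.10 and -0.08 with quantile normalization and cyclic loess), SLC7A11 (-0.02 without Control replicate 3, to 0.67), HSPA5 (0.11 after centring, 0.01 with cyclic loess and 0.01 and 0.00 without High A4 replicate 2 and Control replicate 2), FSHR (0.11, 0.01 and 0.04 with the 3 scalings and -0.20 to 0.11 with 1 cow left out) and FOXL2 (-0.32 with array weights and -0.17 to 0.16 with 1 cow left out), all with adjusted p above the threshold. The within-cow ratio of PSAT1 to PSPH turned too (0.04 and 0.07 with quantile normalization and cyclic loess). The cause of these changes was not tested. Each of the 10 genes has 1 probe set, so the median over probe sets gave no other value.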

Other observations

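SLC1A4, a carrier of serine, alanine and other small neutral amino acids, was picked from the list of amino acid genes after its values were seen. It had 27.9, 36.7, 37.5 and 31.6 in High A4 and 142, 107, 46.5 and 31.4 in Control. The High A4 cows were close together, Control replicates 1 and 2 were high and Control replicate 4 lay among the High A4 cows. Both means were under the noise threshold, and without the filter the log2 fold change was -1.05 (95% interval -1.96 to -0.14, unadjusted p = 0.0278, adjusted p = 0.143 from limma).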
